A study of Mus musculus with 6 samples.

Results

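Cytosolic ribosomal protein genes encode the proteins that, together with ribosomal RNA, build the small and the large subunit of the ribosome in the cytosol. They were taken by symbol from the genes listed in each library, as symbols that begin with Rpl or Rps followed by a digit, plus *Rpsa*, *Rplp0*, *Rplp1* and *Rplp2*, without pseudogene symbols and without the genes of the S6 kinases and of the Rps19 binding protein. The rule found 89 genes of the 25239 listed. Of these, 77 encode the proteins of the ribosome itself (31 of the small subunit, 43 of the large subunit and 3 of the stalk), and 12 are paralogs or retrogenes, which are copies of a ribosomal protein gene. The filter on low counts kept 83 of the 89 genes, among 12117 genes tested in all.

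Splenic TCRβ+CD4+CD44-CD127+ T cells were purified by FACS from C57BL/6 mice of 3 genotypes, with 2 libraries each. The control cells were *Ikzf3* +/+, and the others carried the N159S allele on 1 chromosome (*Ikzf3* +/N159S) or on both (*Ikzf3* N159S/N159S), and are called heterozygous and homozygous below. *Ikzf3* encodes Aiolos, a zinc finger transcription factor of lymphocytes and a relative of Ikaros. The allele is a CRISPR-Cas9-made germline change, so every cell of the mouse carries it, and the sources used here do not give the age or sex of these mice. No treatment other than the sort was applied, and reads were obtained from poly(A)-selected RNA.

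Ribosomal protein genes are among the most highly expressed genes of any dividing or growing cell. Naive T cells are small and quiescent, and they raise the output of ribosomes when an antigen activates them. The mRNAs of these genes typically begin with a C followed by a run of pyrimidines, known as the terminal oligopyrimidine or TOP motif, through which mTORC1 signalling controls their translation. Some ribosomal proteins are known for roles outside the ribosome. Rpl5 and Rpl11 bind Mdm2 when ribosome assembly fails, and Rps6 is the classical substrate of the S6 kinases.

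The bases around the annotated start of a few of these genes are shown because they carry the feature that the family is known for. Each line holds 15 bases before the start and 15 bases from the start on, 5′ to 3′ on the strand of the gene, from RefSeq on GRCm38.p6. Capitals mark the longest run of pyrimidines that begins with a C within 5 bases of the start. *Rps6*, *Rps9*, *Rpl15*, *Rpl28* and *Rplp2* stand for both subunits and the stalk, and *Rps27* is set beside its retrogene *Rps27rt*. They were chosen after the sequences were seen.
Rps6, chr4:86857353-86857382, minus strand: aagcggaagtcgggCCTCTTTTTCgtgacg
Rps9, chr7:3704026-3704055, plus strand: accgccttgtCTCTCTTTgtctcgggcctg
Rpl15, chr14:18270972-18271001, minus strand: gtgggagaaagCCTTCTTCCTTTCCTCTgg
Rpl28, chr7:4792950-4792979, plus strand: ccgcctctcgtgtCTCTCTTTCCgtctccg
Rplp2, chr7:141447636-141447665, plus strand: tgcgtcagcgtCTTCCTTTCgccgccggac
Rps27, chr3:90213634-90213663, minus strand: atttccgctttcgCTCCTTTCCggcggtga
Rps27rt, chr9:114982725-114982754, minus strand: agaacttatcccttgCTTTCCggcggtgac

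The pyrimidine run was more frequent at the starts of these genes than at those of all genes. A promoter window of 300 bases was at hand for 68 of the 89 genes. A C followed by at least 4 pyrimidines, within 5 bases of the start on the strand of the gene, was present in 32 of the 68 genes (47.1%) and in 4027 of all 18651 genes with a window (21.6%). The window ends 50 bases after the annotated start. Only runs that begin within 5 bases of that start were counted, so a start annotated farther from the one the cell uses could hide a run. Of 4 other letter strings searched on both strands of the whole window, GGAAGT, the core of ETS family sites, was in 45.6% of these genes and 27.9% of all genes. AAGATGGC, the core of YY1 sites, was in 8.82% and 3.51%, GGGAA, the core bound by Ikaros family zinc fingers, in 70.6% and 66.1%, and TATAAA in 11.8% and 14.4%. Among the 63 tested genes with a window, the homozygous T cells had a median log2 difference from *Ikzf3* +/+ of 0.24 for the 31 with a run and 0.25 for the others.

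The libraries held 11696461 to 17317260 reads on genes, between 14803 and 18147 genes had at least 1 read, and scaling factors lay between 0.979 and 1.03. *Cd4* was at 681 to 993 CPM and *Cd3e* at 283 to 429 CPM, as the sort for CD4 T cells requires, and *Cd44* was at 15.9 to 43.5 CPM. The summed level of 16 B cell markers was 234 and 364 CPM (counts scaled to a library of 1000000 reads) in *Ikzf3* +/+, 621 and 1022 CPM in *Ikzf3* +/N159S, and 233 and 155 CPM in *Ikzf3* N159S/N159S. It was thus highest in both *Ikzf3* +/N159S libraries. The summed level of 14 myeloid markers was 220 to 270 CPM and that of 13 CD8 and NK cytotoxic markers 55.3 to 90.5 CPM. Of 8 erythroid markers, 4, the globin genes, were listed at 0 in every library. The summed level of the 8 was 0.944 and 8.07 CPM in *Ikzf3* +/+, 10.2 and 8.24 CPM in *Ikzf3* +/N159S, and 2.96 and 3.44 CPM in *Ikzf3* N159S/N159S. The summed level of 14 naive CD4 T cell markers was 8712 and 8495 CPM in *Ikzf3* +/+, 7714 and 7290 CPM in *Ikzf3* +/N159S, and 7120 and 7387 CPM in *Ikzf3* N159S/N159S T cells. In the last, 4 of the 14 were called lower and 1 higher, where 2.12% and 3.14% of all tested genes were. Of 15 proliferation genes 1, *Stmn1*, was called higher in *Ikzf3* N159S/N159S, where 3.14% of all tested genes were. The summed level of the list was 613 to 659 CPM. The summed level of 12 effector and memory T cell markers was 120 and 117 CPM in *Ikzf3* +/+, 126 and 143 CPM in *Ikzf3* +/N159S, and 64.0 and 76.3 CPM in *Ikzf3* N159S/N159S, and that of 10 regulatory T cell markers was 172 and 167, 265 and 243, and 186 and 188 CPM in the same order. The part of these markers in the results below was not tested.

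*Xist*, the RNA of the inactive X chromosome, had levels of 730 and 824 CPM in both heterozygous libraries and of 0.772 to 1.98 CPM in the other libraries. Genotype and the presence of *Xist* therefore cannot be told apart in any comparison that includes *Ikzf3* +/N159S. *Ikzf3* itself was at 157 and 154 CPM in *Ikzf3* +/+, 168 and 152 CPM in *Ikzf3* +/N159S, and 197 and 202 CPM in *Ikzf3* N159S/N159S T cells. A changed codon is not visible in counts per gene, so this level does not check the labels.

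The ribosomal protein genes took a larger share of the reads in both genotypes with the N159S allele than in *Ikzf3* +/+. They held 8.50% and 8.09% of the reads on genes in the *Ikzf3* +/+ libraries, 10.3% and 9.57% in the *Ikzf3* +/N159S libraries, and 10.1% and 9.97% in the *Ikzf3* N159S/N159S libraries. All 4 libraries with the allele lay above both control libraries, and the 2 genotypes with the allele overlapped. The means were 8.30% ± 0.289 (SD, n = 2), 9.92% ± 0.496 (SD, n = 2) and 10.01% ± 0.0607 (SD, n = 2). The share was 1.21 times the control share in *Ikzf3* N159S/N159S and 1.20 times in heterozygous T cells. In bulk RNA, more cells of a type and more RNA per cell cannot be told apart.

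**Figure D1:**
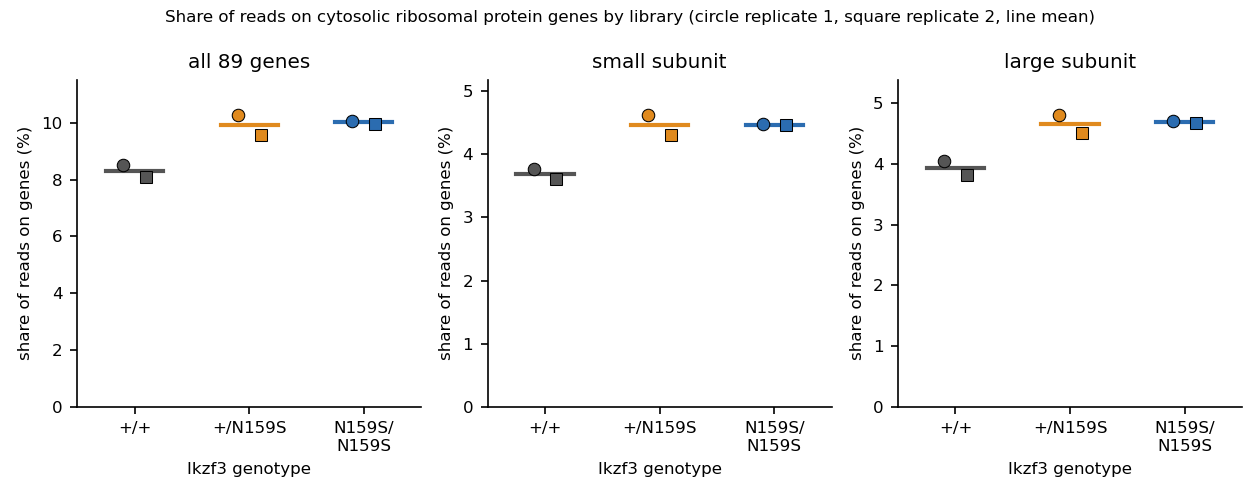
Share of the reads on genes, in percent (y axis from 0), taken by all 89 cytosolic ribosomal protein genes and by those of the small and the large subunit, for each library by genotype (circle replicate 1, square replicate 2, line mean of 2). The control libraries lie at 8.50% and 8.09% for all genes, below the 4 libraries with the N159S allele, which lie between 9.57% and 10.3%.

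Both subunits were higher by about the same factor. Genes of the small subunit held 3.69% ± 0.116 (SD, n = 2) of the reads in *Ikzf3* +/+, 4.47% ± 0.223 (SD, n = 2) in heterozygous and 4.47% ± 0.00660 (SD, n = 2) in homozygous T cells. Genes of the large subunit held 3.93% ± 0.168, 4.65% ± 0.214 and 4.69% ± 0.0204 (SD, n = 2 each). The stalk proteins Rplp0, Rplp1 and Rplp2, which recruit elongation factors to the large subunit, held 0.631% ± 0.00390, 0.745% ± 0.0572 and 0.788% ± 0.0343 (SD, n = 2 each). The ratio of small to large subunit reads stayed between 0.931 and 0.962 in the 6 libraries. The proteins of the mitochondrial ribosome, which is built from other genes, held 0.200% ± 0.00756 in *Ikzf3* +/+, 0.221% ± 0.00142 in *Ikzf3* +/N159S and 0.209% ± 0.00416 (SD, n = 2 each) in homozygous T cells, which were 1.10 and 1.04 times the control share.

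Levels differed widely between ribosomal protein genes even though a ribosome holds about equal numbers of most of these proteins. Of the 75 tested genes of the ribosome itself, 73 had a mean of at least 10 CPM, from 283 CPM for *Rpl38* to 3970 CPM for *Rplp0*, with a median of 1072 CPM, and 41 were over 1000 CPM. The highest means after *Rplp0* were those of *Rpsa*, which encodes a small subunit protein also known as a laminin receptor, of *Rps3a1* and *Rps3* of the small subunit, and of *Rpl4* of the large subunit. Per kb of transcript, the median over the 73 genes was 1532 CPM, with quartiles at 1140 and 1925 CPM per kb. On this scale *Rplp1* at 4356 CPM per kb was highest, followed by *Rps14* at 3250 and *Rplp0* at 2923 CPM per kb, and *Rps20* at 322 CPM per kb was lowest, 13.5 times below *Rplp1*, followed by *Rpl37* at 439 CPM per kb. The value of *Rps20* rests on an annotated transcript of 3706 bases.

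A few genes lay far below this range, and parts of their sequence are shared with copies elsewhere. *Rps27* was at 3.90 to 7.17 CPM, and 98.4% of the 100-base windows of its transcript were identical in transcripts of other genes. *Rpl34* was at a mean of 8.79 CPM with 31.0% of windows shared. *Rpl26* and *Rps27rt* were listed at 0 in every library and *Rpl30* had at most 5 counts, with 36.8%, 89.5% and 53.5% of windows shared. Reads that map equally well to several places are not counted by default, and 4.23 to 4.92% of all entries were of that kind. Other genes with many shared windows had high counts, with *Rpl10* (91.6% shared) at a mean of 950 CPM and *Rpl5* (91.1%) at 2361 CPM. The part of reads lost to copies in the low counts was not tested. Of the 82 tested genes with an annotated transcript, 37 shared at least 50% of their windows and 14 shared fewer than 10%.

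In homozygous T cells, every tested ribosomal protein gene had a log2 fold change above 0 against *Ikzf3* +/+. The median over the 83 genes was 0.25 (quartiles 0.20 and 0.31), a 1.19-fold level, while the median over all 12117 tested genes was 0.00038 and 50.1% of them lay above 0. Of all tested genes, 81.5% had a log2 fold change below the median of the ribosomal protein genes. In 75 of the 83 genes both *Ikzf3* N159S/N159S libraries lay above both *Ikzf3* +/+ libraries, against 24.3% of all tested genes. In the other 8 genes the libraries overlapped.

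The number of single genes that passed a test depended on the tool. The quasi-likelihood test of edgeR with Benjamini-Hochberg adjustment called 5 of the 83 genes higher at an FDR under 0.05, where 3.14% of all tested genes were called higher. DESeq2 called 18 of the 83 genes higher, where 3.21% of all tested genes were. No gene was called lower by edgeR, where 2.12% of all tested genes were, or by DESeq2, where 2.33% were. At an unadjusted p under 0.05, 40 of the 83 genes were higher and 0 lower, where 9.52% and 8.73% of all tested genes were. The smallest p that an exact two-sided permutation of 2 libraries against 2 allows is 0.333, and each FDR here borrows its estimate of the spread from other genes and measures only the spread between these libraries. None of the 5 calls held when any 1 of the 4 libraries compared was left out, while the median log2 fold change then stayed between 0.23 and 0.29.

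*Rps27a* encodes a small subunit protein made as a fusion with ubiquitin, and it lies on chromosome 11 from 29545846 to 29548109 (mm10). It was at 575 and 596 CPM in *Ikzf3* +/+, 849 and 719 CPM in *Ikzf3* +/N159S, and 822 and 798 CPM in homozygous T cells. Both genotypes with the allele lay above the control libraries and overlapped each other. The log2 fold change was 0.47 (standard error 0.11, FDR = 0.0273, edgeR quasi-likelihood test, Benjamini-Hochberg adjusted) in homozygous T cells, and 69.1% of its windows are shared with 4 other genes.

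*Rps29* encodes a small zinc-binding protein of the small subunit, on chromosome 12 from 69157722 to 69159186. It was at 701 and 694 CPM in *Ikzf3* +/+, 916 and 803 CPM in *Ikzf3* +/N159S, and 957 and 941 CPM in homozygous T cells. The 3 genotypes did not overlap, and the log2 fold change in homozygous T cells was 0.44 (standard error 0.10, FDR = 0.0287, same test).

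*Rpl13*, a large subunit gene on chromosome 8 from 123102350 to 123105244, was at 1539 and 1457 CPM in *Ikzf3* +/+, 1907 and 1736 CPM in *Ikzf3* +/N159S, and 2070 and 2009 CPM in homozygous T cells. Its levels were again ordered by the number of mutant alleles without overlap, with a change of 0.45 on the log2 scale (standard error 0.11, FDR = 0.0373, same test) in homozygous T cells. *Rpl36*, a large subunit gene on chromosome 17 from 56613416 to 56614243, was at 419 and 371 CPM in *Ikzf3* +/+, 486 and 536 CPM in *Ikzf3* +/N159S, and 509 and 533 CPM in homozygous T cells. Here the 2 genotypes with the allele overlapped, and the log2 fold change was 0.40 (standard error 0.10, FDR = 0.0461, same test) in homozygous T cells. The windows shared with other genes were 78.9% for *Rpl13*, 55.3% for *Rpl36* and 24.7% for *Rps29*.

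*Rpl37rt*, a retrogene of *Rpl37* annotated as a transcribed processed pseudogene, lies on chromosome 5 from 115102923 to 115110268. It was at 54.7 and 52.4 CPM in *Ikzf3* +/+, 63.9 and 64.4 CPM in *Ikzf3* +/N159S, and 70.6 and 71.3 CPM in homozygous T cells. The libraries of each genotype lay close together and the genotypes did not overlap, with a change of 0.41 on the log2 scale (standard error 0.10, FDR = 0.0356, same test) in homozygous T cells. Its windows are 77.4% shared with other genes, so its reads are uncertain, as are those of the other called genes with many shared windows. *Rpl37* itself had a log2 fold change of 0.32 (FDR = 0.0824, same test).

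The 5 genes called did not stand far from the rest of the family. Their log2 fold changes lay 0.15 to 0.22 above the median of the ribosomal protein genes, with standard errors of 0.098 to 0.11. *Rps19*, the small subunit gene most often mutated in Diamond-Blackfan anaemia, was at 858 and 927 CPM in *Ikzf3* +/+, 1258 and 1011 CPM in *Ikzf3* +/N159S, and 1328 and 1151 CPM in homozygous T cells. Its log2 fold change of 0.47 (standard error 0.13, FDR = 0.0567, same test) was as large as that of *Rps27a*, but its libraries were spread more widely. *Rplp1* of the stalk was at 1823 and 1822 CPM in *Ikzf3* +/+, 2417 and 2068 CPM in *Ikzf3* +/N159S, and 2583 and 2328 CPM in homozygous T cells. Its log2 fold change was 0.43 (standard error 0.12, FDR = 0.0664, same test), and the genotypes with the allele overlapped each other but not the controls.

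**Figure D2:**
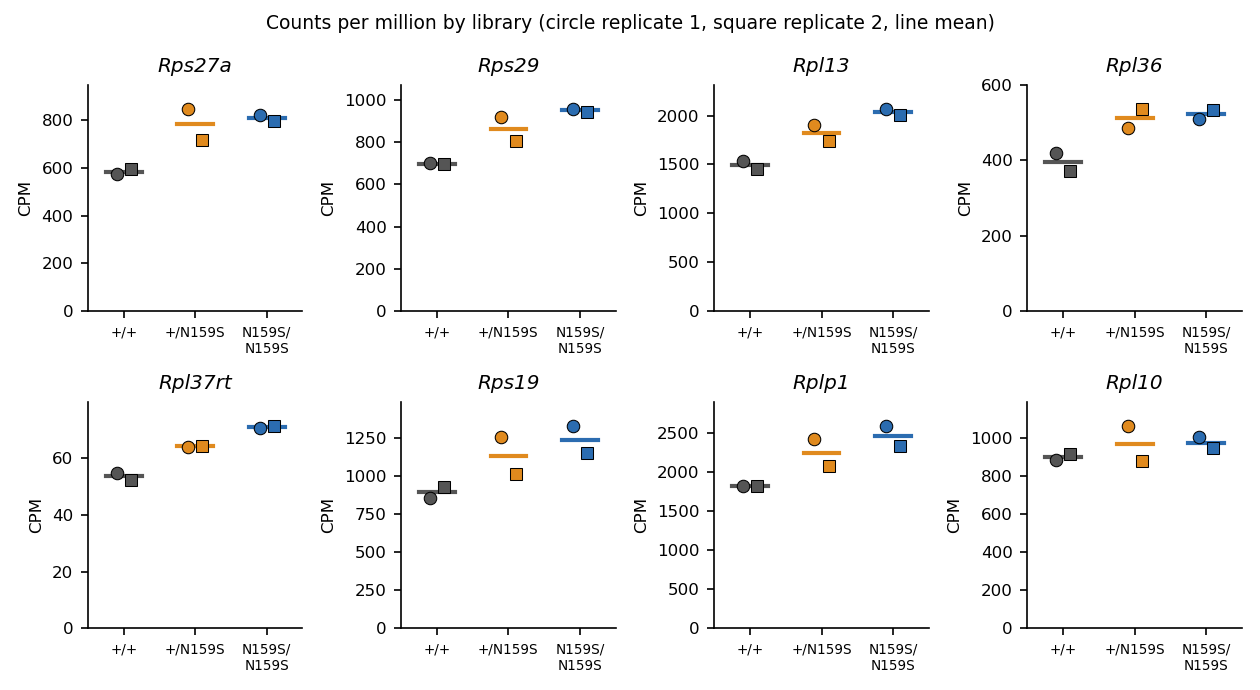
CPM (y axes from 0) of the 5 genes called in Ikzf3 N159S/N159S T cells, of Rps19 and Rplp1 just above the FDR threshold and of Rpl10 with a small change, for each library by genotype (circle replicate 1, square replicate 2, line mean of 2). Rpl37rt rose from 54.7 and 52.4 to 70.6 and 71.3 CPM without overlap, whereas the Rpl10 libraries of Ikzf3 +/N159S, at 1064 and 878 CPM, spanned the control libraries.

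At the other end, *Rpl13a*, a large subunit gene with 4 snoRNA genes inside it, was at 1973 and 2023 CPM in *Ikzf3* +/+, 2237 and 2106 CPM in *Ikzf3* +/N159S, and 2175 and 2129 CPM in homozygous T cells. Its log2 fold change of 0.11 (standard error 0.11) in homozygous T cells was as small as its error. *Rpl10*, an X-linked gene whose protein joins the large subunit last, was at 886 and 915 CPM in *Ikzf3* +/+ and at 1004 and 950 CPM in homozygous T cells, which is a log2 difference of 0.12 (standard error 0.11). Among the 73 genes of at least 10 CPM, fold changes ran from 1.08 for *Rpl13a* to 1.39 for *Rps19*. *Rps27* had a change of 0.60 on the log2 scale (standard error 0.25) and the Rps4x paralog *Rps4l* of 1.13 (standard error 0.59), both on a few CPM and neither past the threshold.

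The subunits had the same median. The 31 small subunit genes had a median log2 fold change of 0.26, with 2 called, and the 41 large subunit genes of 0.26, with 2 called. The stalk genes had 0.24 for *Rplp0*, 0.34 for *Rplp2* and 0.43 for *Rplp1*, with none called. Of all tested genes, 3.14% were called higher. *Rplp0* was at 3595 and 3708 CPM in *Ikzf3* +/+ and at 4462 and 4176 CPM in homozygous T cells. The libraries of all 3 stalk genes were higher in *Ikzf3* N159S/N159S without overlap, as were those of 24.3% of all tested genes.

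Genes with known roles outside the ribosome had values like those of the rest. *Rps6* was at 1803 and 1693 CPM in *Ikzf3* +/+ and at 2039 and 2183 CPM in homozygous T cells, which is a log2 difference of 0.27 (standard error 0.11, FDR = 0.206, same test). *Rpl11* had a log2 fold change of 0.26 (FDR = 0.187, same test) and its partner *Rpl5* of 0.17 (FDR = 0.474, same test). *Rpsa* was at 2434 and 2484 CPM in *Ikzf3* +/+ and at 3286 and 3009 CPM in homozygous T cells, which is a log2 difference of 0.36 (standard error 0.13, FDR = 0.154, same test). *Rpl22*, which is required for the development of αβ T cells, was at 457 and 409 CPM in *Ikzf3* +/+, 496 and 513 CPM in *Ikzf3* +/N159S, and 471 and 531 CPM in homozygous T cells. None of these genes was called, where 3.14% of all tested genes were called higher and 2.12% lower. In each of them both *Ikzf3* N159S/N159S libraries lay above both controls, as in 75 of the 83 genes and 24.3% of all tested genes.

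In heterozygous T cells the ribosomal protein genes had a median above 0, and no single gene passed the test of edgeR. The median log2 fold change against *Ikzf3* +/+ was 0.22 (quartiles 0.16 and 0.28), 81 of the 83 genes lay above 0, and 51.9% of all tested genes did. In 59 of the 83 genes both *Ikzf3* +/N159S libraries lay above both control libraries, against 25.0% of all tested genes. In 1 gene, *Rpl32l* at a mean of 0.952 CPM, they lay below, as they did in 2683 of the 12117 tested genes. The quasi-likelihood test of edgeR with Benjamini-Hochberg adjustment called 0 genes higher, where 1.15% of all tested genes were, and 0 lower, where 0.602% were. At an unadjusted p under 0.05, 32 genes were higher and 0 lower, where 9.27% and 7.01% of all tested genes were. DESeq2 called 4 genes higher and 0 lower, where 1.63% and 1.19% of all tested genes were called. Without the first heterozygous library the median was 0.15, with 63 of 83 genes above 0. This comparison shares the *Ikzf3* +/+ libraries with the one above, so the values of both move together with the level of the controls.

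*Rps27a* again had the smallest FDR (log2 fold change 0.42, standard error 0.11, FDR = 0.0742, same test). It was followed in size by *Rps27l*, a paralog of *Rps27* known as a p53 target, at 17.6 and 13.4 CPM in *Ikzf3* +/+ and 19.5 and 20.4 CPM in heterozygous T cells (log2 fold change 0.38, standard error 0.16), and by *Rpl36* (log2 fold change 0.37, standard error 0.10, FDR = 0.0972, same test). The smallest values were those of *Rpl32l* (log2 fold change -0.51, standard error 0.52) and *Rps4l* (-0.10, standard error 0.70), which had about 1 CPM or fewer, and of *Rpl27*. *Rpl27*, a large subunit gene, was at 539 and 559 CPM in *Ikzf3* +/+ and at 628 and 471 CPM in heterozygous T cells, so that the libraries of the latter lay on both sides of the controls (log2 fold change 0.0011, standard error 0.13).

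**Figure D3:**
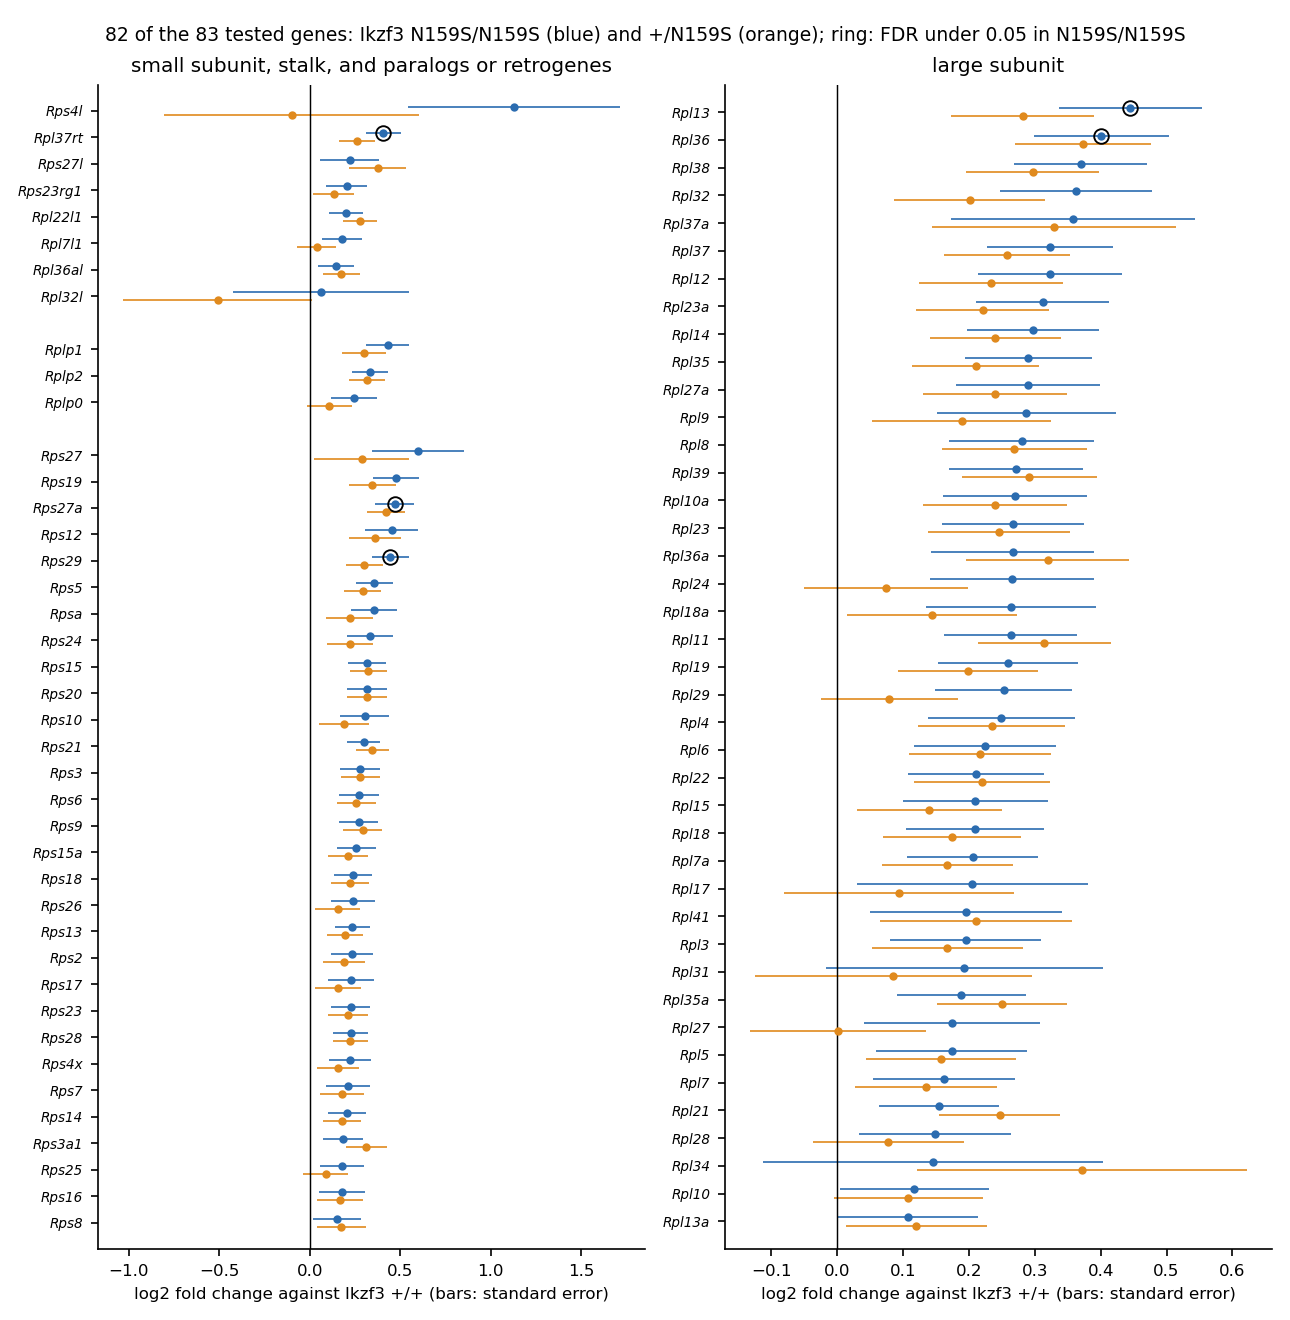
Log2 fold change against Ikzf3 +/+ with its standard error (x axis) of 82 of the 83 tested genes, split into small subunit, stalk, copies and large subunit, for Ikzf3 N159S/N159S (blue) and Ikzf3 +/N159S (orange), with a ring around the 5 genes with an FDR under 0.05 in Ikzf3 N159S/N159S. All 82 blue points lie above 0, and the orange points of Rpl32l and Rps4l lie below 0.

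No gene was called between the 2 genotypes with the allele. The median log2 fold change of *Ikzf3* N159S/N159S against heterozygous T cells was 0.045, with 65 of the 83 genes above 0, and 48.4% of all tested genes were above 0. The quasi-likelihood test of edgeR with Benjamini-Hochberg adjustment called 0 of the 83 genes, where 1.66% of all tested genes were called, 0 had an unadjusted p under 0.05, where 1450 of the 12117 tested genes did, and DESeq2 called 0, where 2.07% were called. In 12 genes both *Ikzf3* N159S/N159S libraries lay above both *Ikzf3* +/N159S libraries, against 19.5% of all tested genes. The median was -0.0030 without the second *Ikzf3* +/N159S library and 0.10 without the first, so its direction rests on 1 library.

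The heterozygous level was above the average of the control and homozygous log2 levels (their midpoint) by a median of 0.078, in 71 of the 83 genes. Over all tested genes this median was 0.011, and 6353 of the 12117 lay above 0. The same test called 0 genes as departing from the midpoint, where 1.03% of all tested genes departed, DESeq2 called 0, where 1.60% were called, and 3 genes (*Rps3a1*, *Rps21* and *Rpl22l1*) had an unadjusted p under 0.05, where 11.5% of all tested genes did. Without the first heterozygous library the median was 0.019, with 50 of 83 genes above 0, and without the second it was 0.13, so its size rests on 1 library. *Rps3a1* was at 2485 and 2400 CPM in *Ikzf3* +/+, 3041 and 3024 CPM in *Ikzf3* +/N159S, and 2674 and 2874 CPM in homozygous T cells, so that its highest level was in the heterozygous cells. *Rpl22l1*, the paralog of *Rpl22*, was at 155 and 154 CPM, 178 and 197 CPM, and 172 and 183 CPM in the same order.

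The 2 libraries of a genotype differed from each other in a pattern that recurred. In each genotype 1 library had more genes detected, which were the first of *Ikzf3* +/+ and the second of both other genotypes. Between these and the remaining libraries, 46 of the 83 genes moved in the same direction in all 3 genotypes (55.4%), as did 42.2% of all tested genes. *Rpl31* and *Rpl17* were lower in the library with more genes detected and *Rpl37a*, *Rps12* and *Rpl41* higher, which were named after their values were seen. For *Rpl37a* the log2 differences were 0.46, 0.52 and 0.31 in *Ikzf3* +/+, *Ikzf3* +/N159S and *Ikzf3* N159S/N159S, and for *Rpl31* they were -0.26, -0.78 and -0.38. In size, these values of *Rpl37a* and *Rpl31* exceeded the family's median log2 fold changes against the controls, 0.25 (homozygous) and 0.22 (heterozygous). The difference of *Rpl17* between the control libraries, -0.13, did not. The family medians of the 2 libraries of a genotype lay closer together than those fold changes. Against the mean of the controls they were 0.025 and -0.025 for control, 0.27 and 0.15 for heterozygous, and 0.26 and 0.26 for homozygous T cells.

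**Figure D4:**
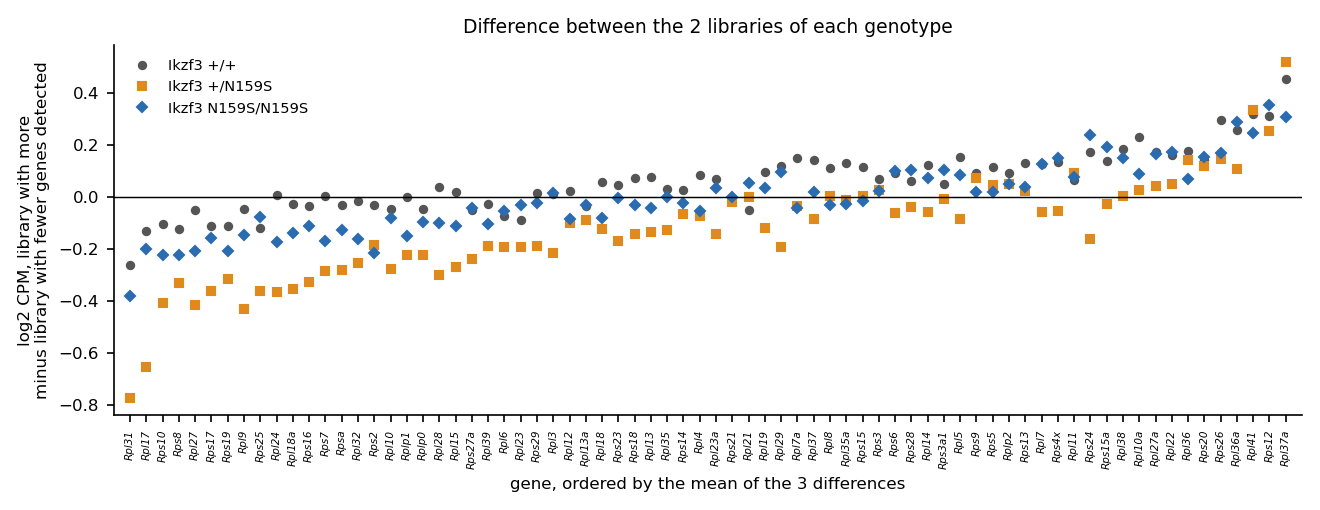
Log2 CPM of the library with more genes detected minus that of the other library of the same genotype (y axis), for 72 of the 73 ribosomal genes of at least 10 CPM ordered by their mean difference, with 1 symbol per genotype. The 3 genotypes take similar positions at both ends, from Rpl31 at -0.26, -0.78 and -0.38 to Rpl37a at 0.46, 0.52 and 0.31.

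**Figure D5:**
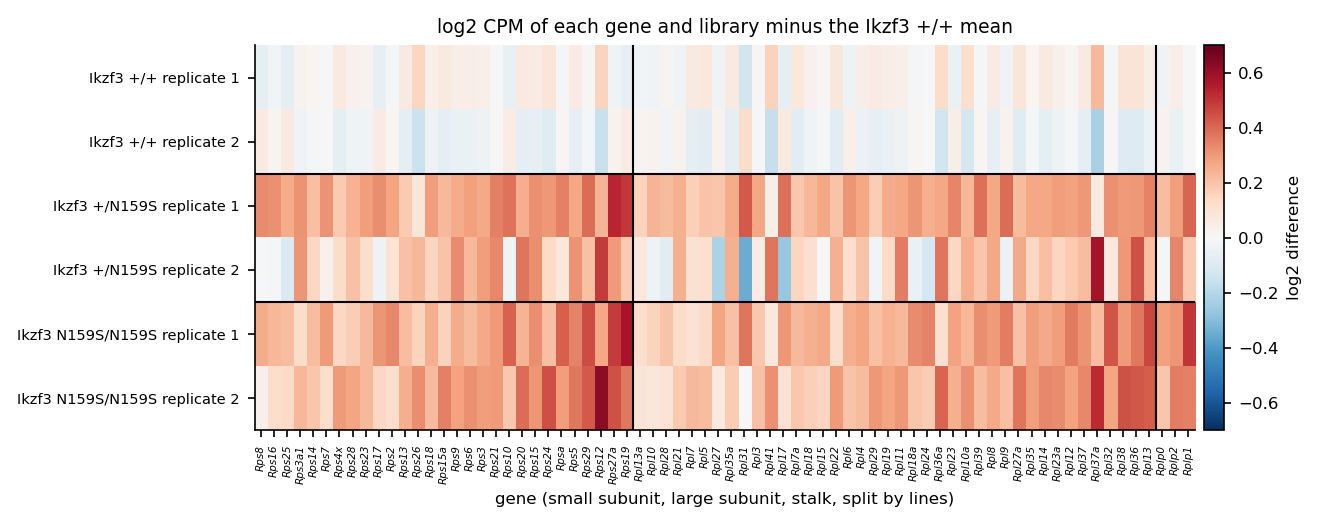
Log2 CPM of each gene in each library minus the mean of the Ikzf3 +/+ libraries (color, from -0.7 to 0.7) for 72 of the 73 ribosomal genes of at least 10 CPM (x axis, by subunit and size of change) and the 6 libraries (rows). The 4 libraries with the N159S allele are above 0 for most genes; 15 of the 72 genes are below 0 in the second Ikzf3 +/N159S library, among them Rpl31, and 0, 0 and 1 in the other 3.

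The median level of the family, on the log2 scale against the mean of the controls, was 0.27 and 0.15 in the *Ikzf3* +/N159S libraries and 0.26 and 0.26 in the *Ikzf3* N159S/N159S libraries. The control libraries lay at 0.025 and -0.025. The second *Ikzf3* +/N159S library, which had the highest summed level of B cell markers, lay lowest among the 4 libraries with the allele. The first *Ikzf3* +/N159S library, which had the next highest level of these markers, lay highest. The part of B cell RNA in these levels was not tested. The 4 X-linked genes, *Rpl10*, *Rpl36a*, *Rpl39* and *Rps4x*, had median log2 differences of 0.24 in *Ikzf3* N159S/N159S and 0.22 in heterozygous T cells, close to the medians of all 83 genes.

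Length, base composition, copies and snoRNA content had weak relations with the size of the difference. Pearson's r was taken across the 82 genes with an annotated transcript, which are not independent and share the same libraries. For the log2 fold change in homozygous T cells it was -0.13 with log2 transcript length, 0.29 with GC content and -0.059 with the percent of shared windows. In heterozygous T cells it was -0.071 with log2 transcript length and -0.11 with GC content. With log2 mean CPM, over 83 genes in homozygous T cells, it was -0.32, whereas Spearman's rank correlation was 0.013. The 14 genes with fewer than 10% of windows shared had a median log2 fold change of 0.27 and the 37 with at least 50% had 0.24. The 29 genes with snoRNA genes inside them had a median of 0.25 and the others of 0.26.

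Paralogs and retrogenes held 0.0493% of the reads in *Ikzf3* +/+, 0.0584% in *Ikzf3* +/N159S and 0.0571% in homozygous T cells, and 8 of 12 passed the filter. Among them *Rpl37rt*, *Rps4l* and *Rpl32l* are annotated as processed pseudogenes, although their symbols passed the rule. *Rpl22l1* had a log2 difference of 0.20 in *Ikzf3* N159S/N159S and 0.28 in heterozygous T cells, close to the 0.21 and 0.22 of *Rpl22*. *Rpl7l1*, a nucleolar factor rather than a ribosomal protein, was at 61.4 and 66.0 CPM in *Ikzf3* +/+, 69.8 and 61.1 CPM in *Ikzf3* +/N159S, and 75.5 and 68.9 CPM in homozygous T cells, while *Rpl7* was at 1501 and 1376, 1610 and 1548, and 1539 and 1681 CPM. *Rpl36al* had a log2 fold change of 0.15 beside 0.27 for *Rpl36a* in homozygous T cells. The copies known from muscle and testis were near absent, with at most 4 counts for *Rpl3l*, 3 for *Rpl10l* and 24 for *Rpl39l* in any library, beside 1892 to 2293 CPM for *Rpl3* and 484 to 638 CPM for *Rpl39*.

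Ribosomal proteins that carry other symbols had values like those of the rest. *Fau*, which encodes a ubiquitin-like fusion with a small subunit protein, was at 926 and 938 CPM in *Ikzf3* +/+, 1171 and 997 CPM in *Ikzf3* +/N159S, and 1148 and 1070.3 CPM in homozygous T cells. *Rack1*, a scaffold on the small subunit, had a change of 0.21 on the log2 scale (standard error 0.11) in homozygous T cells. Neither was called, where 3.14% of all tested genes were called higher in homozygous T cells. Both were higher there without overlap, as were 24.3% of all tested genes.

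Other groups of protein synthesis genes had smaller medians than the ribosomal protein genes in both comparisons with *Ikzf3* +/+. Of all 12117 tested genes, 2212 had an unadjusted p under 0.05 in *Ikzf3* N159S/N159S and 1973 in heterozygous T cells. In the same order, 3.14% and 1.15% of all tested genes were called higher, and 2.12% and 0.602% lower. Of 53 tested translation factors, 0 were called in either comparison with *Ikzf3* +/+ (6 and 5 had an unadjusted p under 0.05), with median log2 fold changes of 0.039 in *Ikzf3* N159S/N159S and 0.032 in heterozygous T cells. Of 75 genes of ribosome biogenesis, which make and process ribosomal RNA and assemble the subunits, 0 were called (8 and 2 had an unadjusted p under 0.05), with medians of -0.021 and 0.023. The 78 mitochondrial ribosomal proteins had medians of 0.070 and 0.11, with 49 and 62 above 0, and 1 of them, *Mrpl52*, was called higher in both comparisons (log2 fold changes 0.77 and 0.76). The snoRNA host genes, non-coding RNAs of which several also start with a pyrimidine run, had medians of 0.15 and 0.15 over 14 genes, with 10 and 12 above 0, and *Snhg20* was called in homozygous T cells (log2 fold change 0.83, standard error 0.14, FDR = 0.00642, edgeR quasi-likelihood test, Benjamini-Hochberg adjusted).

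Among 36 tested genes of the mTORC1, S6 kinase and Myc axis, 3 were called higher in homozygous T cells and 0 lower. Of all tested genes, 3.14% were called higher and 2.12% lower. The median log2 fold change of the list was -0.030. *Myc*, a transcription factor that drives ribosome production, was at 102 and 102 CPM in *Ikzf3* +/+, 110 and 109 CPM in *Ikzf3* +/N159S, and 133 and 143 CPM in homozygous T cells (log2 fold change 0.44, FDR = 0.0182, same test). *Akt1*, a kinase upstream of mTORC1, had 0.38 (FDR = 0.0421) and *Zbtb10* 0.65 (FDR = 0.0450, same test). In heterozygous T cells 0 genes of this list were called, where 1.15% of all tested genes were called higher and 0.602% lower. Of the list, 5 genes had an unadjusted p under 0.05, as did 1973 of all 12117 tested genes. *Myc* had a log2 fold change of 0.11 (FDR = 0.613, same test), and the median of the list was -0.14.

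Genes of similar length or level gave the background for these medians. Other tested genes with under 1 kb of exons had medians of 0.091 in *Ikzf3* N159S/N159S and 0.14 in heterozygous T cells, below those of the ribosomal protein genes but above 0. The 559 other genes over 300 CPM had medians of -0.074 and -0.11. Short genes outside the family thus also had medians above 0, and the part of transcript length in the shift of the family was not tested further.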

How the data were processed

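RNA-seq counts of 6 libraries of splenic T cells, 2 per genotype, were used. The authors purified poly(A) RNA, trimmed the reads with Trimmomatic 0.38.1, mapped them to mm10 with HISAT2 2.2.1, counted them with HTSeq 2.0.2 on refGene genes, and deposited raw counts per gene without normalization. Whether the counting used strand is not given in the sources used here, and 25 of the 89 genes have exons that overlap another gene. B cell libraries were not used here. Some single genes are not reported here by name, although counts and sums over lists include them.

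Reads on genes were 50.7 to 57.7% of all entries, the rest being entries on no gene, ambiguous, not aligned or not unique, which were left out of library sizes. In R 4.3.3, edgeR 4.0.16 was used with filterByExpr (minimum count 10, minimum total 15), TMM scaling and the quasi-likelihood test with 1 coefficient per genotype in a fit of all 6 libraries, with Benjamini-Hochberg adjustment over 12117 genes (FDR under 0.05). CPM values use TMM library sizes, and standard errors are on the log2 scale. Residual degrees of freedom were 3. The test was checked on simulated data, with genes drawn independently and changes larger than the median of the ribosomal protein genes. That check does not cover small shifts shared by many genes. Alternatives were DESeq2 1.42.0 and its size factors, library size alone, TMM without the ribosomal protein genes, no filter, a minimum of 10 counts per library, a replicate block, edgeR's earlier quasi-likelihood and exact tests, only the genotypes compared, an FDR under 0.01, and each library left out. A block by genes detected was added after the data were seen.

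Gene positions, transcripts and 100-base windows came from GENCODE on GRCm38, and start sites from RefSeq on GRCm38.p6. Named genes were those called, those with the 3 largest and 3 smallest changes in each comparison with Ikzf3 +/+, the 5 with the highest CPM, a list of well-known genes, and genes that did not pass the filter. The genes, lists and tests were chosen with earlier results of these data known. Replicates are libraries of separate mice as far as the study's methods give n = 2 mice.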

Additional observations from a re-analysis of the deposited data

How the results depend on the processing

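The median log2 fold change of the ribosomal protein genes stayed above 0 against Ikzf3 +/+ under every alternative run, from 0.25 to 0.26 in Ikzf3 N159S/N159S and from 0.21 to 0.26 in Ikzf3 +/N159S T cells. With a library left out these medians lay between 0.23 and 0.29 and between 0.15 and 0.27, and that of Ikzf3 N159S/N159S against Ikzf3 +/N159S between -0.0030 and 0.10. The number of genes called moved more. In Ikzf3 N159S/N159S it was 5, and 18 by DESeq2, 17 with no filter, 13 by the exact test, 49 with the block by genes detected, 1 with the replicate block and 0 at an FDR under 0.01, and between 0 and 7 with a library left out. In Ikzf3 +/N159S it was 0, and 4 by DESeq2, 2 with no filter, 1 by the exact test, 1 with library size alone and 33 with the block by genes detected, and between 0 and 1 with a library left out. In Ikzf3 N159S/N159S, 3.14% of all tested genes were called higher in the main run and 3.21% by DESeq2. That share was 2.61% with no filter, 4.97% by the exact test and 2.58% with the replicate block. In Ikzf3 +/N159S it was 1.15% in the main run and 1.63% by DESeq2. There it was 1.66% with no filter, 3.05% by the exact test and 1.51% with library size alone. With no filter, 87 ribosomal protein genes were tested. The cause of the differing counts was not tested. With all entries counted in the denominator, the shares were 4.69%, 5.39% and 5.59% in Ikzf3 +/+, Ikzf3 +/N159S and Ikzf3 N159S/N159S. The labels do not say whether libraries with the same replicate number belong together, and this was not tested. Over all tested genes, the correlation of the deviations of replicate 1 was -0.167 between Ikzf3 +/+ and Ikzf3 +/N159S. It was -0.216 between Ikzf3 +/+ and Ikzf3 N159S/N159S, and 0.238 between the genotypes with the allele. Over the 83 ribosomal protein genes these correlations were -0.693, -0.678 and 0.562. The block by genes detected, chosen after seeing the data, sets the first Ikzf3 +/+ library beside the second of both other genotypes. With this block 7.30% and 5.77% of all tested genes were called higher in Ikzf3 N159S/N159S and Ikzf3 +/N159S.

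Among single genes, Rpl27 in Ikzf3 +/N159S, at 0.0011, had log2 fold changes of -0.00900 by DESeq2, -0.00895 with its size factors, -0.014 with the replicate block and -0.011 with the block by genes detected. With a library left out, values in Ikzf3 +/N159S ran from -0.22 to 0.20 for Rpl27, -0.040 to 0.24 for Rpl10, -0.065 to 0.13 for Rpl7l1, -0.0095 to 0.22 for Rplp0 and -0.28 to 0.063 for Rps4l, and in Ikzf3 N159S/N159S from -0.15 to 0.36 for Rpl32l. The other log2 fold changes against Ikzf3 +/+ of the 32 ribosomal protein genes under the rule for named genes kept their direction under the alternatives run, which were not run for single genes named outside that rule. Depth limits the genes under 10 CPM (Rps27, Rpl34, Rpl32l and Rps4l), whose standard errors were 0.25 or more.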
